A study of Homo sapiens with 2 samples.

Results

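Of the MYC peaks called on chromosomes 1 to 22 in SH-EP/TET21/N (TET21) neuroblastoma cells, 2176 of 17321 stood alone, with no other peak within 100 kb on either side. They made up 12.6% of those peaks (Wilson 95% interval 12.1 to 13.1%). They were chosen by measured peak positions alone, as the distance from the edge of a peak to the edge of the nearest other peak on the same chromosome. The other 15145 peaks of these chromosomes serve for comparison, and the whole list held 17659 peaks. The list came from 1 ChIP-seq library of MYC, with 1 input library of sonicated chromatin beside it. Both were made from human SH-EP/TET21/N cells that expressed WT-MYC and had received doxycycline at 1 µg/mL for 7 days. TET21 is a derivative of the neuroblastoma line SH-EP in which doxycycline shuts off a MYCN transgene, so both libraries share that background. Cells at passages 10 to 15 were fixed in 1% formaldehyde for 10 min, and 2 µg of a rabbit polyclonal MYC antibody made in the submitters' laboratory was used. The labels do not say whether it separates ectopic from endogenous MYC.

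MYC is a transcription factor. It pairs with MAX through helix-loop-helix and zipper domains, and the pair contacts DNA with a preference for the E-box CACGTG. It is known for binding promoters of active genes, where open chromatin and CpG-rich sequence favour its access, and it also occupies enhancers, more of them as its level increases. A single site far from any other can therefore be the promoter of a gene, for instance in a gene-poor region, or a site away from promoters. The coordinates are GRCh37, and no genome sequence or gene annotation of that build was used here, so neither the gene beside a peak nor the E-box under it was determined. There were no replicates. All values of peak strength come from the same ChIP and input pair as the peak positions, so they are described without a test. Intervals cover counting error or the spread among peaks of 1 library.

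The strongest isolated sites carried several times as many fragments as a typical peak. For each peak the authors' deposited list gives the fold over the peak caller's local background and a −log10 p. The pileup, which counts the ChIP fragments that cover the summit, and the expected background were recovered from those values. The most significant isolated peak, on chromosome 1 at 110162235 to 110162618, was 384 bp wide and had a pileup of 56 fragments (95% Poisson interval 42.3 to 72.7) over a background of 0.937. Its fold of 29.4 was also the highest among the isolated peaks. Its neighbours lay 135 kb to the left and 154 kb to the right. By −log10 p (78.6) it ranked 51 among all peaks of chromosomes 1 to 22, so the 50 most significant peaks all had a neighbour within 100 kb. That cut was set by the rank itself, and only 12.6% of all these chromosomes' peaks were isolated.

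The peak on chromosome 3 at 131221559 to 131221887 came next, with 59 fragments (44.9 to 76.1), a fold of 25.9 and no other peak for 284 kb on one side and 914 kb on the other. Chromosome 15 held 2 of the 10 most significant. That at 50647551 to 50647890 had 58 fragments and a fold of 25.5. That at 41407699 to 41408594 had 43 fragments and a fold of 26.1. This second peak was the widest of the 10, at 896 bp, and lay on the lowest background of the list, 0.683 fragments. On chromosome 12, the peak at 64615869 to 64616194 had 58 fragments and a fold of 25.4. The peak on chromosome 2 at 10829906 to 10830219 had 51 fragments and the fold nearest to the highest, 28.2. The Poisson intervals of these counts overlap, which leaves their order uncertain.

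A peak on chromosome 6, at 114292525 to 114292802, stood at the edge of a long empty stretch. It had 57 fragments and a fold of 24.1, with a neighbour 116 kb to the left and none for 2129 kb to the right. The peak on chromosome 8 at 10697245 to 10697701 had 55 fragments and a fold of 24.1. On chromosome 7, the peak at 105925434 to 105926033 had the largest pileup of any isolated peak, 66 fragments (51.0 to 84.0), but a fold of 18.4 over a background of 2.64 fragments. The last of the 10, on chromosome 1 at 237634303 to 237634584, had 47 fragments and a fold of 23.6. It lay inside a row of 9 consecutive isolated peaks described further on.

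Most of the 10 most remote peaks had folds below the median of the other peaks, 6.41. The peak farthest from any other, on chromosome 4 at 30723672 to 30723842, had no neighbour for 3861 kb to the left and 4299 kb to the right. It rested on 10 fragments (95% Poisson interval 4.80 to 18.4) and had a fold of 5.42 over a background of 1.03. The next, on chromosome 9 at 68726140 to 68726419, had 9 fragments and a fold of 5.94. Its left gap of 30105 kb spans the centromeric region, which is known to map poorly, and its right gap was 2924 kb. On chromosome 13 the peak at 67804507 to 67804794 had 13 fragments, a fold of 5.82 and gaps of 2506 and 5277 kb.

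One of the 10 most remote peaks was strong. The peak on chromosome 2 at 88991056 to 88991532 had 26 fragments (16.98 to 38.1) where the background was 0.683, which gave a fold of 16.04, with gaps of 2140 and 2772 kb. How much of these gaps, or of those of the other named peaks, can be mapped was not determined. The other 9 remote peaks had pileups of 9 to 13 fragments. Those on chromosome 7 (69063146 to 69063524), chromosome 11 (22647179 to 22647641) and chromosome 12 (129308545 to 129308719) had folds of 6.38, 6.06 and 6.31. The second remote peak of chromosome 4, at 180616439 to 180616599, had a fold of 6.90, and that of chromosome 18, at 39772873 to 39773014, a fold of 5.94. The weakest, on chromosome 1 at 72749223 to 72749364, had a fold of 3.36 and a −log10 q of 1.57, close to the lowest of the list, 1.31.

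**Figure D1:**
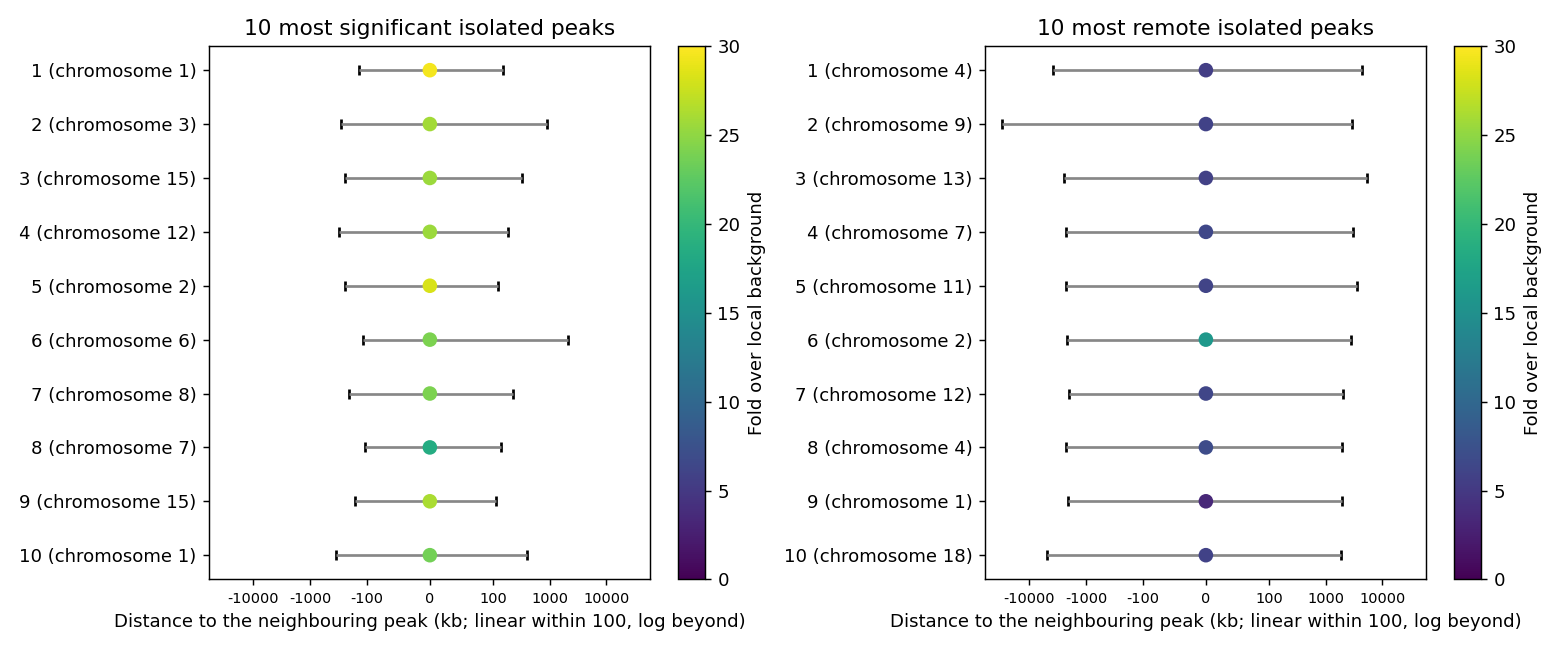
Distance in kb from the 10 most significant (left) and the 10 most remote (right) isolated peaks to the next peak on either side; the axis is linear within 100 kb and logarithmic beyond, circles are coloured by fold over local background and ticks mark the neighbouring peaks. The significant peaks have folds of 18.4 to 29.4 and the remote ones 3.36 to 16.04.

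Isolation came in all degrees beyond the threshold. The criterion itself places isolated peaks farther from their nearest neighbour than the other peaks, whose median distance was 5.37 kb. For isolated peaks the nearest other peak lay at a median distance of 175 kb (quartiles 128 and 283 kb). It was over 200 kb away for 901 isolated peaks (41.4%), over 500 kb for 213 (9.79%) and over 1000 kb for 67 (3.08%). The farther neighbour lay at a median of 436 kb, and at over 5000 kb for 24 peaks. Between its neighbours an isolated peak stood in a median stretch of 650 kb with no other peak. For 16 isolated peaks only 1 neighbour existed, because they were the first or last peak of their chromosome.

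The threshold cuts through a continuum. Just inside it lay a peak on chromosome 7 at 104524270 to 104524460, with its neighbour at 100.19 kb and a fold of 6.38. A pair on chromosome 17 at 69334573 to 69334714 and 69434965 to 69435173, 100.25 kb from each other, had folds of 4.54 and 9.54. Just outside were a peak on chromosome 20 at 42939704 to 42939993 with its neighbour at 99.96 kb and a fold of 9.02, one on chromosome 21 at 18985073 to 18985253 at 99.92 kb and 4.03, and one on chromosome 8 at 580881 to 581166 at 99.90 kb and 8.91.

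Many isolated peaks followed one another along the chromosome. Counted as rows of consecutive isolated peaks, the 2176 fell into 1161 rows. The neighbour of an isolated peak meets the distance on 1 side by construction, since both share the gap. No expected number of rows was computed, so the counts of rows are a description only. There were 643 rows of 1 peak, 264 rows of 2 peaks and 194 rows of 3 to 4 peaks (640 peaks in all). The other 60 rows held 5 to 10 peaks (365 peaks, 16.8% of the isolated). The longest rows held 10 peaks. One on chromosome 5, from 15008719 to 23631639, spread its 10 peaks over 8.62 Mb, with folds of 3.45 to 8.57. That on chromosome 3, from 105724953 to 110790612, covered 5.07 Mb with folds of 4.40 to 11.2.

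Rows of 9 peaks lay on chromosomes 6, 3 and 1. The row on chromosome 1, from 236958565 to 239549932, had folds of 4.75 to 23.6, the highest being one of the 10 most significant isolated peaks. The row on chromosome 6, from 119468471 to 125421054, had folds of 3.69 to 13.6. That on chromosome 3, from 151516380 to 154042168, had folds of 3.88 to 14.7. A row of 8 on chromosome 18, from 34286570 to 43382953, was the sparsest of the 8 longest, at 9.10 Mb, and had folds of 4.72 to 7.60. It included one of the 10 most remote peaks.

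With the chromosomes pooled, the median isolated peak was slightly below the median of the other peaks in fold, pileup and background. The median fold was 6.30 in isolated peaks (95% interval of the median 6.12 to 6.43) and 6.41 in the other peaks (6.39 to 6.47), intervals that overlap. The lower quartiles were both close to 5.2 (5.17 and 5.18), and the upper quartiles were 8.13 and 8.48. The median pileup was 12 fragments in isolated peaks and 13 in the others, and the 95th percentiles were 28 and 32. Without chromosomes 1, 7 and 17 the median pileup was 12 in both groups. The median fold was then 6.29 in isolated peaks (6.12 to 6.47) and 6.40 in the others, close to the values of all chromosomes. On chromosomes 1, 7 and 17 other peaks had median pileups of 14, 15 and 15, and 9.71, 11.6 and 4.59% of peaks were isolated. How far the pooled medians reflect which chromosomes hold the isolated peaks was not tested. The median background was 1.03 fragments in isolated peaks and 1.13 in the others. The median −log10 p was 9.79 in isolated peaks (9.69 to 10.2) and 10.4 in the others (10.3 to 10.5).

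Strong peaks made up a smaller share of the isolated peaks. Folds of at least 10 were found in 283 isolated peaks, 13.01% (Wilson 95% interval 11.7 to 14.5%), and in 2392 other peaks, 15.8% (15.2 to 16.4%), with 15.4% over all peaks of chromosomes 1 to 22. Folds of at least 20 were found in 20 isolated peaks, 0.919% (0.596 to 1.42%), and in 230 others, 1.52% (1.34 to 1.73%). The 2 intervals at this fold overlap, and the share over all was 1.44%. The 20 isolated peaks were spread over 13 chromosomes, with 3 on chromosome 1 and at most 2 on any other. The highest fold was 29.4 among isolated peaks and 59.9 among the others.

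Isolated peaks made up a smaller share of the 500 and the 2000 most significant peaks than of the whole list. They were 8 of the 100 most significant peaks (8%, 4.11 to 15.00%, an interval that includes their 12.6% of all), 44 of the 500 (8.80%, 6.62 to 11.6%) and 196 of the 2000 (9.80%, 8.57 to 11.2%). By fold they held 42 of the top 500 (8.40%), and by pileup 43 (8.60%). At the weak end, a pileup of 8 fragments or fewer lay under 300 isolated peaks (13.8%, 12.4 to 15.3%) and 1492 others (9.85%, 9.39 to 10.3%). The share with a −log10 q under 3 was 9.42% (8.26 to 10.7%) in isolated peaks and 8.58% (8.15 to 9.04%) in the others, intervals that overlap.

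**Figure D2:**
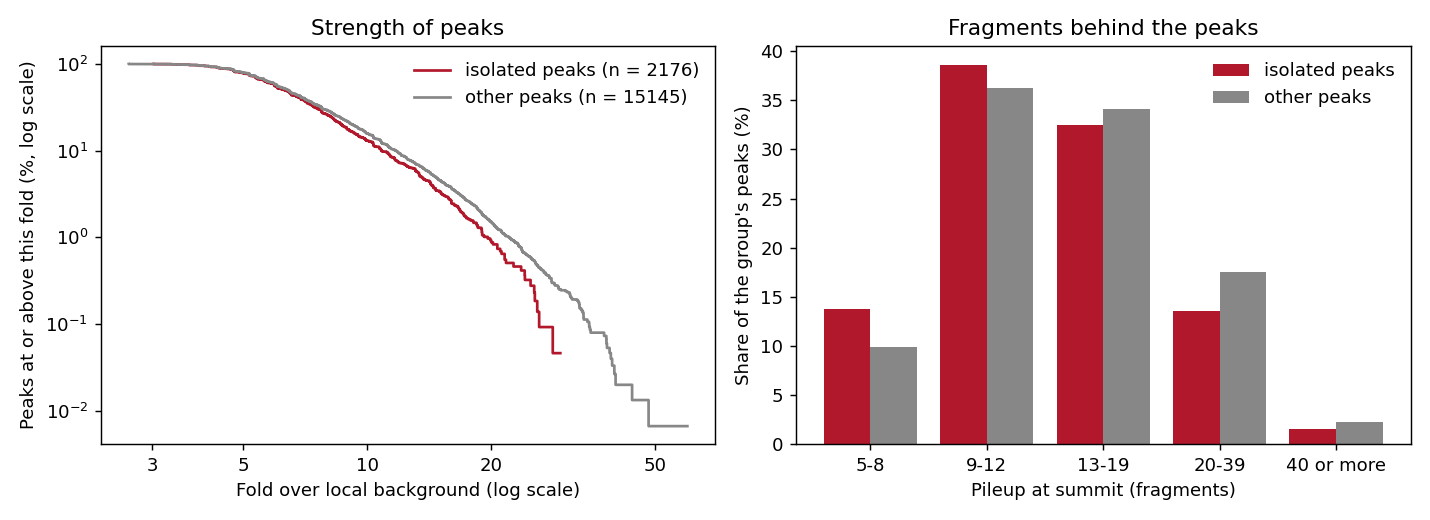
Left, share of isolated peaks (red) and other peaks (grey) in percent that reach at least a given fold over local background, both axes logarithmic. Right, share of each group in percent by pileup at the summit in fragments; 13.8% of isolated and 9.85% of other peaks have 5 to 8 fragments, and 1.52% and 2.28% have 40 or more.

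With the chromosomes pooled, background differed together with pileup. The lowest background, a genome-wide floor of 0.683 fragments, lay under 320 isolated peaks (14.7%, 13.3 to 16.3%) and 1370 others (9.05%, 8.60 to 9.51%). A background over 2 fragments lay under 90 isolated peaks (4.14%) and 912 others (6.02%). Chromosome by chromosome, the median background of isolated peaks was below that of the others on 15 of 22, and equal or higher on the rest. On chromosomes 1, 7 and 17, where other peaks had median backgrounds of 1.32, 1.36 and 1.32, 9.39, 2.46 and 9.09% of isolated peaks were at the floor. The floor share of other peaks was not computed by chromosome. Among peaks at the floor, where the fold depends on the pileup alone, the median pileup was 9 fragments in isolated peaks (range 5 to 43) and 10 in the others (range 5 to 66). The highest background under an isolated peak was 5.28 fragments. It was found under the peak at 95064040 to 95064490 of chromosome 7, whose fold was 4.14, and the peak at 103124542 to 103124683 of chromosome 10, whose fold was 3.34.

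Isolated peaks were slightly narrower at the median. Their median width was 214 bp (95% interval 208 to 219), against 228 bp (226 to 230) in the other peaks. The narrowest width in the list, 142 bp, was that of 253 isolated peaks (11.6%, 10.4 to 13.04%) and 1330 others (8.78%, 8.34 to 9.24%). Widths over 500 bp were found in 6.48% of isolated peaks (5.52 to 7.59%) and 6.85% of the others (6.46 to 7.27%). The widest isolated peak, on chromosome 1 at 55680043 to 55681441, was 1399 bp wide yet had a pileup of 12 fragments and a fold of 7.43. It was followed by one on chromosome 4 at 120987562 to 120988769, 1208 bp wide with a fold of 11.6.

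Within classes of pileup up to 39 fragments, the median widths of isolated and other peaks were close. With 5 to 8 fragments the median width was 159 bp in isolated peaks and 160 bp in the others. With 9 to 12 fragments, the class with the most isolated peaks (840, 38.6%), it was 180 bp (176 to 185) in isolated peaks and 186 bp (184 to 188) in the others. With 13 to 19 fragments the widths were 239 bp (230 to 246) and 243 bp (240 to 246), and with 20 to 39 fragments 327 bp (305 to 348) and 328 bp (322 to 336). Among peaks with 40 fragments or more, the 33 isolated peaks had a median width of 340 bp (320 to 388) and the 346 others 425 bp (396 to 456). This class is not one of like pileups, since isolated peaks reached at most 66 fragments and the others 115.

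The values on either side of the 100 kb threshold were close. Peaks with their neighbour within 1 kb had a median fold of 6.38, those at 1 to 10 kb 6.40, at 10 to 50 kb 6.49 and at 50 to 100 kb 6.38. Isolated peaks at 100 to 200 kb, 1275 in number, had a median fold of 6.47 (95% interval 6.25 to 6.54), within the range of the closer classes. At 200 to 500 kb the median was 6.035 (5.94 to 6.32, 688 peaks), at 500 to 1000 kb 6.41 (5.94 to 6.93, 146 peaks) and beyond 1000 kb 5.94 (5.60 to 6.38, 67 peaks). The order is therefore not even, and the intervals of the 2 farthest classes overlap those of most others.

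The lowest median pileup and the lowest share of strong peaks were in the farthest class. The median pileup was 13 fragments in each class up to 200 kb, 12 at 200 to 500 kb and at 500 to 1000 kb, and 11 beyond 1000 kb. In the 4 classes up to 100 kb, folds of at least 10 made up 15.0 to 16.4% of peaks, beside 15.4% over all peaks. They were found in 190 of the isolated peaks at 100 to 200 kb (14.9%, 13.1 to 16.96%), 76 at 200 to 500 kb (11.1%, 8.92 to 13.6%), 13 at 500 to 1000 kb (8.90%, 5.28 to 14.6%) and 4 beyond 1000 kb (5.97%, 2.35 to 14.4%). The intervals of neighbouring classes overlap, and the 100 to 200 kb value is close to the share over all peaks. Median width was 222 bp at 100 to 200 kb (217 to 229), 201 bp at 200 to 500 kb (194 to 208), 202.5 bp at 500 to 1000 kb (189 to 219) and 181 bp beyond 1000 kb (171 to 222), where the interval overlaps those of the other 3 classes.

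**Figure D3:**
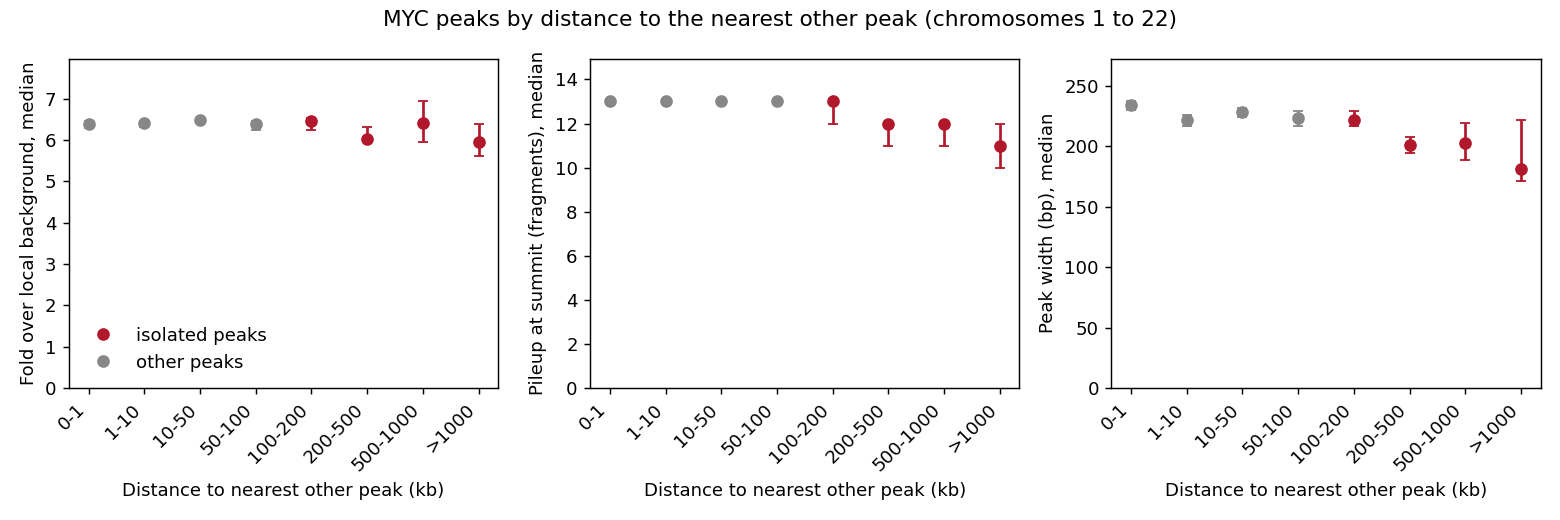
Median fold over local background, median pileup at the summit in fragments and median peak width in bp by distance to the nearest other peak in kb, for isolated peaks (red) and other peaks (grey); bars are 95% intervals of the median. Isolated peaks at 100 to 200 kb have a median fold of 6.47 and a width of 222 bp, and those beyond 1000 kb 5.94 and 181 bp.

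Being isolated at 100 kb did not mean lying in an empty region. Within 1 Mb on either side, isolated peaks had a median of 9 other peaks (quartiles 5 and 15), against 23 (13 and 37) for the other peaks. Part of this difference is by construction, since the same positions defined the groups. No other peak lay that close to 67 isolated peaks, 1 to 3 others to 259, and 16 or more to 538 (24.7%). The median fold was 6.17 (5.94 to 6.54) for isolated peaks with 1 to 3 others within 1 Mb and 6.50 (6.19 to 6.82) for the 236 other peaks of such regions. With 16 or more it was 6.47 for isolated peaks (6.20 to 6.59) and also 6.47 for the others (6.42 to 6.49). In both kinds of region the intervals of isolated and other peaks overlap.

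The share of isolated peaks differed widely among chromosomes. It was highest on chromosome 4, where 151 of 650 peaks were isolated (23.2%, Wilson 95% interval 20.2 to 26.6%), followed by chromosome 13 with 79 of 379 (20.8%, 17.1 to 25.2%) and chromosome 8 with 137 of 704 (19.5%, 16.7 to 22.6%). These intervals overlap. It was lowest on chromosome 19, where 25 of 1047 peaks were isolated (2.39%, 1.62 to 3.50%). Chromosomes 17 (4.59%), 22 (5.08%) and 16 (5.96%) were also below 6%. Chromosome 2 held the largest number, 217, and chromosome 22 the smallest, 22.

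These shares ran opposite to gene density. Over the 22 chromosomes the share of isolated peaks and the number of protein-coding genes per Mb had a Spearman rho of −0.94 and a Pearson r of −0.83. These are descriptions, since gene density was taken over the span of the same peaks and isolation itself depends on how many peaks a chromosome has per Mb. Chromosome 4 had 4.03 coding genes per Mb and chromosome 19 had 24.7. Chromosome 18 had the fewest, 3.47, and an isolated share of 17.9% (13.9 to 22.8%). Chromosome 7, with 5.92 coding genes per Mb, had 11.6% isolated peaks (9.82 to 13.7%), whereas chromosome 10, with 5.43, had 15.8% (13.4 to 18.5%), intervals that overlap.

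Counted per Mb, isolated peaks were more even than their shares. They also ran opposite to gene density, with a Spearman rho of −0.57 and a Pearson r of −0.67, again as descriptions. They ranged over the chromosomes from 0.425 per Mb on chromosome 19 (95% Poisson interval 0.275 to 0.628) to 0.969 on chromosome 15 (0.765 to 1.21), while all peaks ranged from 3.41 per Mb on chromosome 4 to 17.8 on chromosome 19. Chromosome 17, the densest after 19 with 14.8 peaks per Mb, had 0.679 isolated peaks per Mb (0.512 to 0.884), and chromosome 4 had 0.791 (0.670 to 0.928). Per 100 coding genes they ranged from 1.72 on chromosome 19 (1.12 to 2.54) to 23.4 on chromosome 13 (18.5 to 29.1).

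**Figure D4:**
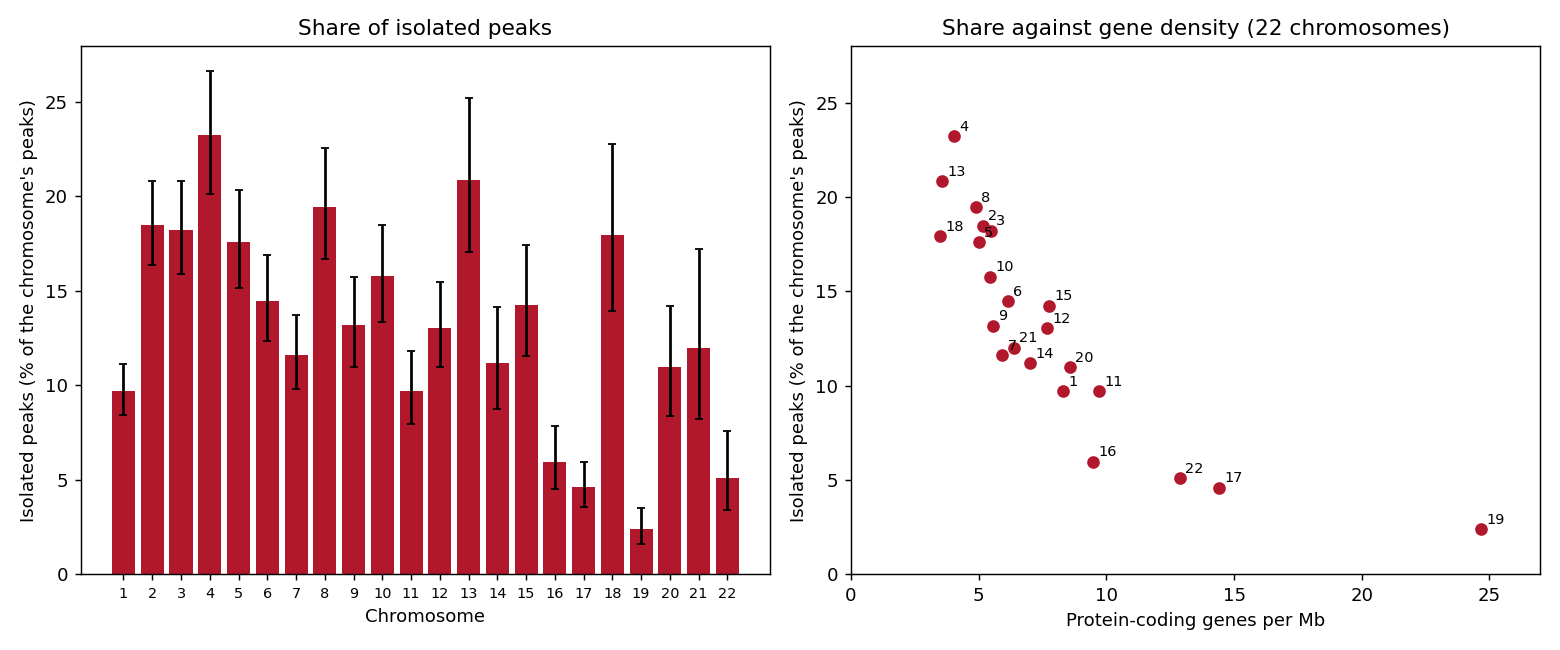
Left, isolated peaks in percent of all peaks of each chromosome, with Wilson 95% intervals as bars. Right, the same share against protein-coding genes per Mb, 1 point per chromosome; chromosome 4 (23.2%) and chromosome 19 (2.39%) mark the ends.

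Compared within each chromosome, the median fold of isolated peaks was below that of the other peaks on 14 chromosomes, above it on 7 and equal to it on 1, and the 95% intervals of the medians overlapped on all 22. Chromosome 20 had the highest median among isolated peaks, 7.23 (5.94 to 7.76, n = 49), against 6.35 (6.00 to 6.54) in its other peaks. Chromosome 13 had the lowest, 5.91 (5.60 to 6.47), against 6.38 (6.04 to 6.53). On chromosome 21 the 24 isolated peaks had a median fold of 6.05 (5.35 to 7.66) and a median pileup of 11 fragments, against 6.92 (6.47 to 7.63) and 14 in the others. The median pileup of isolated peaks was lower than that of the others on 15 chromosomes, equal on 5 and higher on 2. The share of isolated peaks at the floor of the background ranged from 2.46% on chromosome 7 to 31.8% on chromosome 22, which had 22 isolated peaks.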

How the data were processed

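Per the submitters' processing notes the build was GRCh37, and the tools included MACS2 2.1.0, Picard 2.7.1, SAMtools 1.3 and STAR 2.5.2a, whose roles are not stated. The authors' deposited peak list holds, per the file's narrowPeak layout, a score, a fold ratio over the local background, a −log10 p, a −log10 q and the summit position. In 100% of peaks the authors' deposited score is the whole part of 10 times the −log10 q. Depth is otherwise unknown. How the list had been filtered is not stated. Peak numbers run to 17679 with 20 missing, and 5 isolated peaks lie next to one.

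Pileup and background were computed from fold = (pileup + 1) / (background + 1) and a Poisson p, trying pileups of 3 to 699. A whole pileup matched the −log10 p within 0.001 for 100% of peaks, and the procedure was tested on simulated peaks. The floor is 0.683 fragments within 0.0003. Medians have exact binomial 95% intervals, shares Wilson and counts exact Poisson ones. They treat peaks as independent, and without molecular identifiers fragments need not be independent molecules. Python 3.11.15, SciPy 1.17.1 and pandas 2.3.3 were used. Positions are 1-based.

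Peaks per Mb were counted over the span from a chromosome's first to last peak. Coding genes per chromosome came from RefSeq (GRCh38.p14), whose coordinates were not combined with the peaks. Peaks named are the 10 most significant, the 10 most remote and 3 on each side of the threshold. Those with the largest pileup, width or background and the longest rows were chosen after their values were seen. Members, lists and alternatives were chosen with earlier results of these data known. Shares at start sites, E-box shares and gene lists need a GRCh37 annotation or sequence and were not computed. RNA-seq was not analysed here.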

Additional observations from a re-analysis of the deposited data

How the results depend on the processing

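With 1 ChIP library no replicate could be left out. No paired analysis over replicates was possible because the ChIP and input libraries share only 1 replicate number. The deposited list has no separate column for the input, only the fold over the caller's local background. Of 6 results laid down at the outset, the shares at start sites and with an E-box were not run under any setting. The other 4 had 20 alternatives, of which 12 stayed within the 95% interval of the median or within 1.5 times the count, and 8 moved. For each of the 4, 1 alternative that stayed left out isolated peaks with only 1 neighbour or next to a missing peak number. It was not planned, kept 2155 of the 2176 and could hardly move a value. Each alternative was judged by the isolated peaks alone, not by their difference from the other peaks. A distance of 50 kb gave 4193 isolated peaks with a median pileup of 13 fragments, the same as in the other peaks, so the difference of 12 against 13 was gone. Fold and width still differed at 50 kb, with medians of 6.32 against 6.43 and 218 against 229 bp. At 200 kb there were 901 isolated peaks, with a median fold of 6.035 (5.94 to 6.31), against 6.42 in the others, and a median width of 201 bp, against 228 bp. The counts move by construction. Keeping only peaks with a −log10 q of at least 3 gave a median fold of 6.51, against 6.60 in the others, since weak peaks are gone. It left 2230 isolated peaks, of which 1971 were isolated in the full list. Among peaks at the floor, an alternative chosen after seeing the data, the median fold was 5.94 in isolated peaks and 6.54 in the others (5.94 to 6.54), and the median pileup 9 and 10 fragments (9 to 10), intervals that reach the isolated values. Without chromosomes 1, 7 and 17 the median pileup was 12 in isolated and also 12 in other peaks. The pileup difference was thus gone there too, although this setting counts among the 12 that stayed. The median fold without these chromosomes was 6.29 in isolated peaks and 6.40 in the others. The weakest pileup called was 5 fragments, so weaker neighbours would not have been listed.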

Other observations

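Some MYC sites stood alone except for a partner next to them. When peaks no more than 1 kb apart were joined to 1 region, 2600 regions had no other region within 100 kb. Of these, 2176 were the single isolated peaks, 361 were pairs and 63 held 3 or more peaks. Being alone over 100 kb was thus not limited to single peaks, and the criterion on single peaks leaves these 424 regions out.

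Chromosome X, which was not among the chromosomes compared, had a larger share of isolated peaks by the same criterion than any of chromosomes 1 to 22. There, 89 of 311 peaks were isolated (28.6%, Wilson 95% interval 23.9 to 33.9%), and this interval overlaps those of chromosomes 4 and 13. Their median fold was 5.94 (5.35 to 6.51), against 6.04 (5.72 to 6.47) in the other peaks of X. The most significant, on chromosome X at 14047800 to 14048229, had 47 fragments (95% Poisson interval 34.5 to 62.5) and a fold of 25.4, with gaps of 295 and 843 kb. The next, at 110924242 to 110924492, had 33 fragments and a fold of 19.4, with gaps of 1363 and 4160 kb, so it was both strong and remote.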
